A study of Mus musculus with 6 samples.

Results

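The enzymes described here carry farnesyl units through squalene and lanosterol to cholesterol. They were chosen by name, as steps of the pathway, and comprise Fdft1, Sqle, Lss, Cyp51, Sc4mol (the older symbol of Msmo1), Nsdhl, Hsd17b7, Ebp and Dhcr7. All 9 were among the 23337 gene symbols of the count table, and all 9 passed the filter on low counts that left 12923 genes for testing, with at least 10 counts in every library. RNA was sequenced from mouse bone marrow-derived macrophages, grown from marrow with M-CSF until day 7 and then given the bacterial product LPS at 100 ng/ml for 8 h. The 3 genotypes were Ch25hKO, which lacks the cholesterol hydroxylase gene Ch25h, LXRdKO, which lacks both liver X receptor (LXR) genes Nr1h3 and Nr1h2, and wild type (WT), with 2 libraries each. The labels give the strain as C57BL/6 for all groups, and every group received LPS, so no value shows the response to LPS itself. The labels do not state the age or sex of the mice, which exons were deleted, or whether libraries sharing a genotype come from different animals or cultures, so a p-value reflects only library-to-library spread, possibly technical.

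Cholesterol is built from acetyl-CoA through the mevalonate pathway, whose farnesyl product is joined head to head to squalene by squalene synthase (Fdft1). Squalene is then oxidised (Sqle) and folded to the sterol lanosterol (Lss), from which methyl groups are removed (Cyp51, Sc4mol, Nsdhl, Hsd17b7) and double bonds are moved or reduced (Ebp, Dhcr7). The transcription factor SREBP2 is known to drive these genes when sterol in the endoplasmic reticulum is low, and the oxysterol made by Ch25h is known to hold SREBP2 back and to act as an LXR ligand. Macrophages also take up cholesterol from outside, so their need for this pathway varies.

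The targeted genes matched the labels. Ch25h had 42 and 57 counts in Ch25hKO, 2509 and 2763 in LXRdKO, and 3120 and 3076 in WT. Nr1h3 was left at 5.64% and Nr1h2 at 2.59% of the WT level in LXRdKO. The level of Ch25h itself fell in LXRdKO, to 84.9% of WT, a call lost without LXRdKO replicate 1 (log2 fold change -0.17). Total counts ranged from 41650513 to 45872964 per library. Levels are given below in CPM, counts scaled to each library's TMM-normalised size. Macrophage markers were abundant in all groups, and the summed level of 8 markers (Emr1, Csf1r, Cd68, Itgam, Lyz2, Mertk, Fcgr1 and Cd14) was 17041 to 17697 CPM in Ch25hKO, 20361 to 20541 CPM in LXRdKO and 17070 to 18524 CPM in WT. Most of that sum was Lyz2, at 10583 CPM in Ch25hKO, 12860 CPM in LXRdKO and 11142 CPM in WT on average. The lowest of the 8 was Mertk, at 34.2 CPM in Ch25hKO, 76.2 CPM in LXRdKO and 48.7 CPM in WT on average. The erythroid genes Hba-a1 and Hbb-b1 had no count in any library.

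Promoter sequences of some of the members that moved together, and of Ebp, which stood apart from them, are shown because the enzymes are known as SREBP2 targets. RefSeq windows (GRCm38.p6) of 300 bases, from 250 bases before to 50 after the annotated start, were searched on both strands and matched 7 of the 9 enzymes, with 3 alternative starts for Dhcr7. Fdft1 and Sqle were not matched. Below are the 250 bases before the start, in which capitals mark TCACNNCA, a loose form of the sterol regulatory element (SRE), and CCAAT, the core bound by NF-Y, on either strand (a CCAAT on the other strand reads ATTGG).
Hsd17b7 (chr1:169969206-169969455, minus strand): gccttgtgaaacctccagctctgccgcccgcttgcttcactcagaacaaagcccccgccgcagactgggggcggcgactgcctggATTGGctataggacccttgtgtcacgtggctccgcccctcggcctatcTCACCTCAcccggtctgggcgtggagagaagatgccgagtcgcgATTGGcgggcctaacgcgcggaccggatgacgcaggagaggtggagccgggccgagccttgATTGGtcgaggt
Cyp51 (chr5:4104698-4104947, minus strand): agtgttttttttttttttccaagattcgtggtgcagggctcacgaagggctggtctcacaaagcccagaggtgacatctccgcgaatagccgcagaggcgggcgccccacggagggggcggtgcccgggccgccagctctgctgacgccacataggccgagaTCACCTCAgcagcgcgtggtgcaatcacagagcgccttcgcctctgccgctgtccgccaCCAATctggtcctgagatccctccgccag
Sc4mol (chr8:64733579-64733828, minus strand): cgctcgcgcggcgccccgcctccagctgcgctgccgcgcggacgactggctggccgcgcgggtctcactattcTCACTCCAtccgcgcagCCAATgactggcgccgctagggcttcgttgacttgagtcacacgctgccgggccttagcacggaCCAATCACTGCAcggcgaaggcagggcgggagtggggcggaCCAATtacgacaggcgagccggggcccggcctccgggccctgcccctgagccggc
Ebp (chrX:8193513-8193762, minus strand): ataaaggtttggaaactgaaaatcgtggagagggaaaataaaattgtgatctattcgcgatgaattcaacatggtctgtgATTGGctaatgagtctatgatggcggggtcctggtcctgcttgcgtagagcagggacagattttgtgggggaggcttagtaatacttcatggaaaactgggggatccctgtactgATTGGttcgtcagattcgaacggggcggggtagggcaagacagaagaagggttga

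The same 8 letters, TCACCTCA, stood at -117 to -110 from the start of Hsd17b7 and at -88 to -81 from that of Cyp51. Sc4mol held TCACTCCA at -177 to -170 and TCACTGCA at -92 to -85, the second of which shares 1 base with a CCAAT. TCACNNCA was found in 5 of the 7 enzymes with a window (Hsd17b7, Cyp51, Sc4mol, Nsdhl and Dhcr7). Counted by window, it stood in 6 of their 9 windows and in 13.8% of all 32851 RefSeq promoter windows. The windows of Lss, which rose 9.85-fold in Ch25hKO over WT, and of Ebp, which was not called, had no such match. The Lss window is not among those printed above, where every enzyme shown other than Ebp holds the match. The printed sequences alone therefore do not show that an enzyme without the match rose as well. CCAAT stood in 7 of the 9 windows and in 37.4% of all windows, and the GC box GGGCGG in 8 of the 9 and in 35.7% of all windows, each in at least 1 window of all 7 enzymes. The E-box CACGTG stood in 2 of the 9 windows (Hsd17b7 and Dhcr7) and in 7.15% of all windows. GC content ran from 45.3% (Ebp) to 71.0% (Lss) over the 9 windows, with a median of 52.7% over all windows, and its part in these shares was not tested. The stricter form TCACNCCAC (1.24% of all windows) and the DR4 direct repeat that LXR can bind (0.0152% of all windows), had no match in the 7. A match or its absence shows letters only, and the rarity of the DR4 form made a match unlikely whatever LXR binds. The motifs were chosen with the expression results known.

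**Figure D1:**
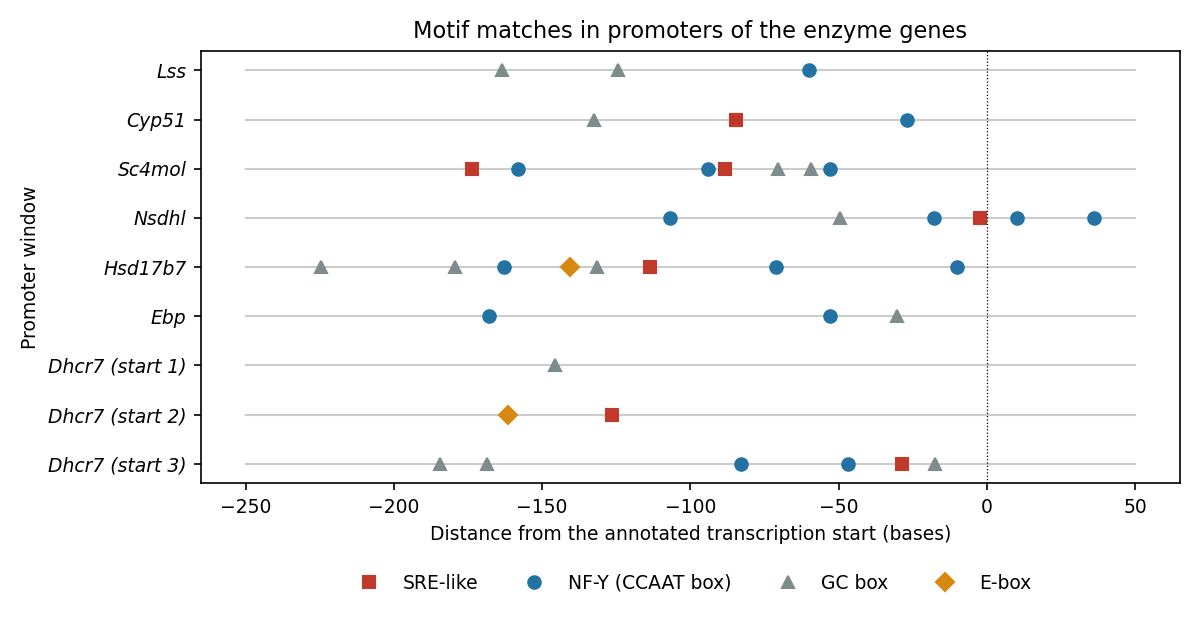
Position of motif matches on either strand, in bases from the annotated transcription start (dotted line), in the 9 promoter windows of 7 enzyme genes, in pathway order from the top. The Lss and Ebp windows have no SRE-like match (TCACNNCA), and every enzyme shown has a CCAAT box in at least 1 window.

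Without Ch25h, 8 of the 9 enzymes rose, each with an estimate of more than 4-fold, while Ebp did not pass the test. Of all 12923 genes, 19.8% were called higher and 19.5% lower at an adjusted p under 0.05, and 0.395% were called higher by more than 4-fold. The 8 enzymes made up 15.7% of the 51 genes in that last class and 88.9% of the members. Both Ch25hKO libraries lay above both WT libraries for 8 of the 9, while 68.3% of all genes had groups that did not overlap. The median log2 fold change was 3.74 over the 9 enzymes, against 0.0064 over all genes tested. Summed over the enzymes, expression averaged 886 ± 4.89 CPM in Ch25hKO, 81.8 ± 1.64 CPM in LXRdKO and 67.1 ± 0.858 CPM in WT (SD, n = 2 each), which is 13.2 times the WT level in Ch25hKO. More cells expressing a gene and more RNA per cell cannot be told apart in such bulk samples.

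**Figure D2:**
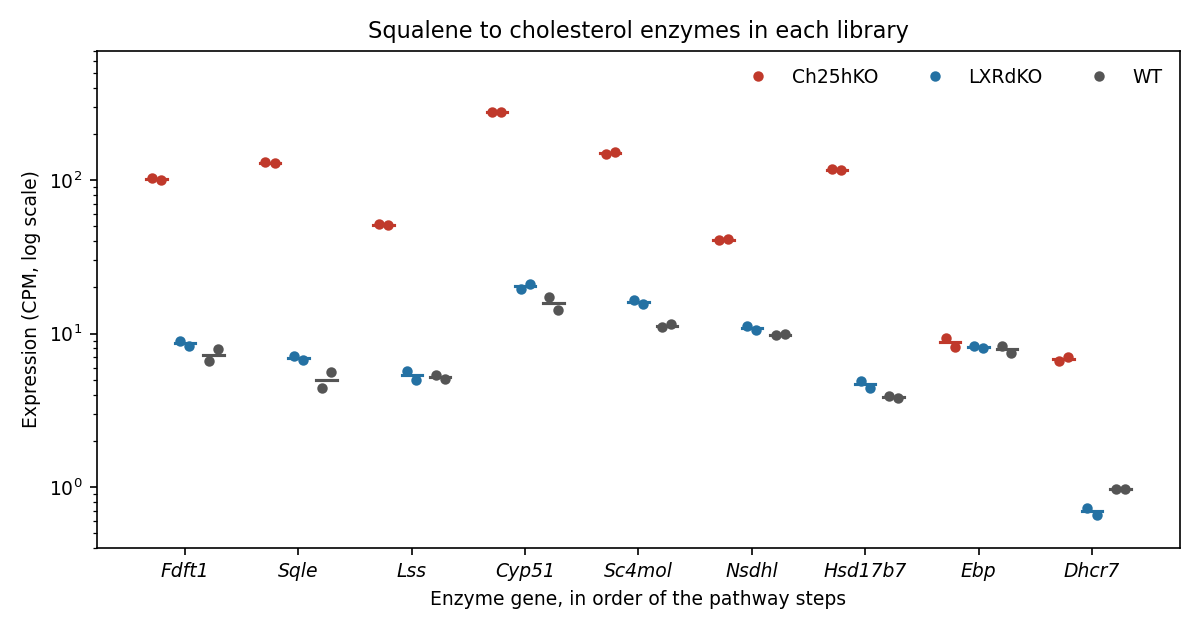
Expression in CPM (log scale) of the 9 enzyme genes in pathway order, with a point for each library and a bar at the mean of the 2 libraries of Ch25hKO, LXRdKO and WT. The Ch25hKO libraries lie above the other 4 for every enzyme except Ebp.

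At the entry to sterol synthesis, Fdft1, squalene synthase (ENSMUSG00000021273.10, chromosome 14, 63145150 to 63179578, minus strand, mm10), had 103 and 100 CPM in Ch25hKO, 8.91 and 8.32 CPM in LXRdKO, and 6.66 and 7.90 CPM in WT. The Ch25hKO libraries were far above the other 4, and the LXRdKO values lay just above those of WT. Fdft1 rose by 3.80 ± 0.07 on the log2 scale in Ch25hKO over WT (± standard error, edgeR adjusted p = 2.92e-17, n = 2 libraries per group here and below), or 13.9-fold. Sqle, squalene epoxidase and a known control point of the pathway (chromosome 15, 59315077 to 59331192), had 131 and 129 CPM in Ch25hKO, 7.16 and 6.76 CPM in LXRdKO, and 4.41 and 5.59 CPM in WT. It showed the larger rise of the pair, at 4.70 ± 0.08 on the log2 scale (edgeR adjusted p = 3.94e-18). The range over the WT libraries was wide relative to their level, and leaving out WT replicate 1 or 2 gave values between 4.54 and 4.86. Lss, the cyclase that forms lanosterol (chromosome 10, 76531588 to 76557138), had 51.7 and 50.8 CPM in Ch25hKO, 5.72 and 4.98 CPM in LXRdKO, and 5.38 and 5.02 CPM in WT. Here the LXRdKO and WT libraries overlapped, and Lss rose 9.85-fold in Ch25hKO (3.30 ± 0.08, edgeR adjusted p = 9.57e-16).

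Among the demethylation steps, Cyp51, the lanosterol demethylase (chromosome 5, 4081145 to 4104746), had 281 and 277 CPM in Ch25hKO, 19.4 and 21.2 CPM in LXRdKO, and 17.3 and 14.3 CPM in WT. It rose 17.6-fold in Ch25hKO (4.14 ± 0.07, edgeR adjusted p = 8.58e-18). Sc4mol, the methyl sterol oxidase (chromosome 8, 64718139 to 64733792), had 149 and 153 CPM in Ch25hKO, 16.5 and 15.6 CPM in LXRdKO, and 11.1 and 11.5 CPM in WT. The 3 genotypes did not overlap for this gene, and it rose 13.4-fold in Ch25hKO (3.74 ± 0.06, edgeR adjusted p = 3.94e-18). The same lack of overlap held for Fdft1, Sqle, Cyp51, Nsdhl, Hsd17b7 and Dhcr7. Nsdhl, the decarboxylating dehydrogenase that acts next (chromosome X, 72918557 to 72958514), had 41.1 CPM in both Ch25hKO libraries, 11.2 and 10.6 CPM in LXRdKO, and 9.75 and 9.92 CPM in WT. Its rise was the smallest of the 8, at 4.18-fold (2.06 ± 0.07, edgeR adjusted p = 1.42e-13). Hsd17b7, the ketosteroid reductase that completes each round of demethylation (chromosome 1, 169949535 to 169969241), had 118 and 116 CPM in Ch25hKO, 4.92 and 4.41 CPM in LXRdKO, and 3.89 and 3.82 CPM in WT. It showed the largest rise, 30.3-fold (4.92 ± 0.07, edgeR adjusted p = 2.42e-18), and ranked 3 among the log2 fold changes of all 12923 genes. Enzymes that act in turn on the same methyl groups thus had rises from 4.18-fold to 30.3-fold.

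At the double-bond steps, Ebp, the sterol isomerase (chromosome X, 8185329 to 8193512), had 9.34 and 8.17 CPM in Ch25hKO, 8.34 and 8.10 CPM in LXRdKO, and 8.26 and 7.48 CPM in WT. The ranges of the 3 genotypes overlapped. Its log2 fold change in Ch25hKO over WT was 0.15 ± 0.10 (edgeR adjusted p = 0.252), and the 95% confidence interval of the fold ran from 0.959 to 1.29. A rise of the size seen for any of the other 8 enzymes lies outside that interval. Dhcr7, the reductase of the last double bond in a branch of the pathway (chromosome 7, 143823145 to 143848410), had 6.62 and 7.06 CPM in Ch25hKO, 0.729 and 0.656 CPM in LXRdKO, and 0.968 and 0.967 CPM in WT. These values rest on 287 and 308 counts in Ch25hKO, 32 and 29 in LXRdKO, and 43 and 42 in WT. Dhcr7 rose 7.05-fold in Ch25hKO (2.82 ± 0.16, edgeR adjusted p = 4.75e-10), with the widest standard error of the 9.

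The call of each enzyme in Ch25hKO over WT was the same in every alternative setting, including each library left out in turn. With a filter of 5 CPM in 2 libraries, Hsd17b7 and Dhcr7 passed only through their Ch25hKO libraries. That setting is therefore no separate support for their calls. Some members overlap other genes on the opposite strand, and the strand setting of the counting is not given. Fdft1 shares up to 774 bases of an exon with Ctsb, a cathepsin gene at 5692 and 6023 CPM in Ch25hKO and 6389 and 5932 CPM in WT, whose log2 fold change was -0.07 ± 0.06 (edgeR adjusted p = 0.383). Cyp51 shares 166 bases with Akap9, which rose by 0.35 ± 0.06 (edgeR adjusted p = 0.000209). Lss shares 150 bases with the antisense RNA 4930483K19Rik, which had 70 and 76 counts in Ch25hKO, 11 and 3 in LXRdKO, and 7 and 8 in WT, so part of its reads and those of Lss cannot be told apart.

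**Figure D3:**
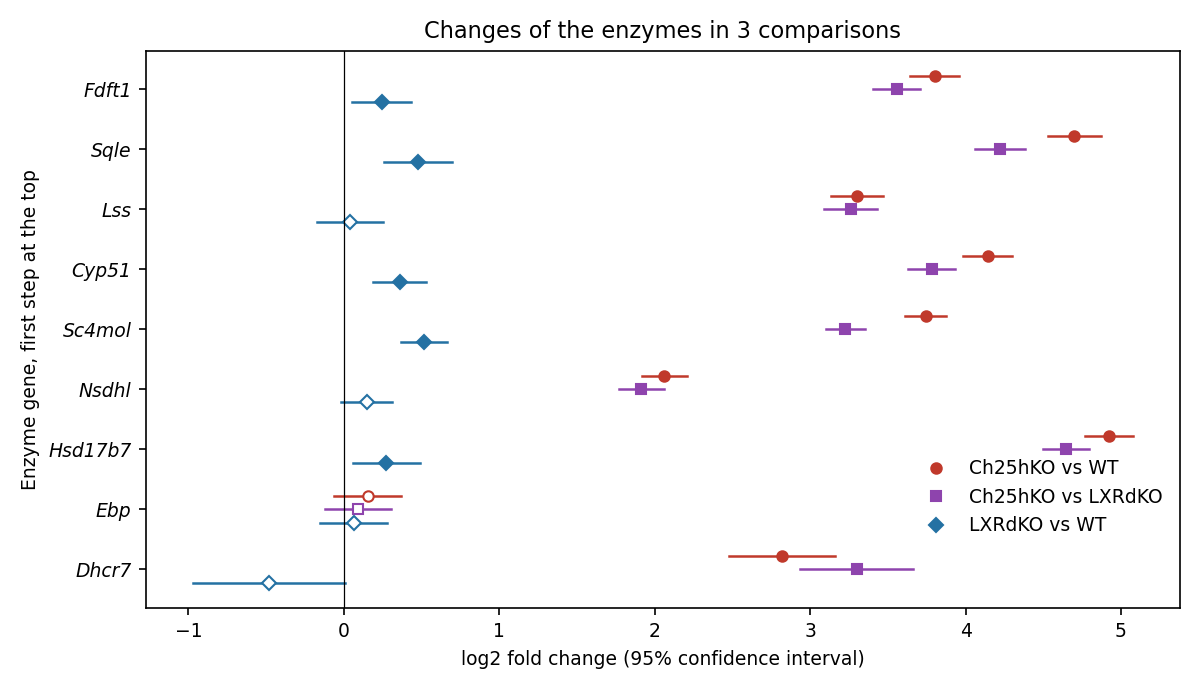
Log2 fold changes with 95% confidence intervals of the 9 enzymes (first step at the top) for Ch25hKO over WT, Ch25hKO over LXRdKO and LXRdKO over WT. Filled symbols passed an adjusted p under 0.05 and open ones did not. In both comparisons of Ch25hKO, 8 enzymes lie to the right of 1.8 and Ebp lies near 0.

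Without the LXRs, the same enzymes differed little from WT. In edgeR's quasi-likelihood test (p-values adjusted by Benjamini-Hochberg), 5 of 9 rose, 0 fell and 4 did not pass, where 16.4% of all genes were called higher and 15.5% lower, and the median log2 fold change was 0.24, against 0.0026 over all genes tested. None of the 9 rose by more than 4-fold, as 0.132% of all genes did, and the LXRdKO and WT libraries did not overlap for 7 of the 9, against 63.6% of all genes. Sc4mol rose 1.43-fold (0.51 ± 0.07, edgeR adjusted p = 1.99e-05), Sqle 1.39-fold (0.48 ± 0.10, edgeR adjusted p = 0.00176) and Cyp51 1.28-fold (0.36 ± 0.08, edgeR adjusted p = 0.00226). Fdft1 (0.24 ± 0.09, edgeR adjusted p = 0.0476) and Hsd17b7 (0.27 ± 0.10, edgeR adjusted p = 0.0482) were only just called. Fdft1 was not called in 12 of 14 alternatives and Hsd17b7 in 13 of 14, so that 3 enzymes rose under RLE or upper-quartile scaling, with DESeq2, with limma-voom, with a filter of 5 CPM, with only the libraries compared and with a replicate block. The number was also 3 without WT replicate 1, Ch25hKO replicate 1, Ch25hKO replicate 2 or LXRdKO replicate 1, and it was 2 without LXRdKO replicate 2, when the call of Cyp51 was lost as well (edgeR adjusted p = 0.0616). Sc4mol and Sqle were called in all 14.

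The 4 enzymes that did not pass in LXRdKO were Nsdhl at 0.15 ± 0.08 (edgeR adjusted p = 0.161), Lss at 0.04 ± 0.10, Ebp at 0.06 ± 0.10 and Dhcr7 at -0.48 ± 0.23 (edgeR adjusted p = 0.129). Dhcr7 was the only enzyme with a value below 0, and both of its LXRdKO libraries lay below both WT libraries. The interval of its fold ran from 0.510 to 1.01. For Lss the interval ran from 0.888 to 1.19 and for Ebp from 0.899 to 1.21. By level, the genotypes ran from Ch25hKO through LXRdKO to WT for 8 enzymes, and from Ch25hKO through WT to LXRdKO for Dhcr7. By the test, LXRdKO and WT were not separated for Lss, Nsdhl, Ebp and Dhcr7, nor Ch25hKO from either of them for Ebp.

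The direct comparison of both knockouts tests the difference between their changes, since both share the WT libraries. Ch25hKO exceeded LXRdKO in 8 of 9 enzymes, where 18.6% of all genes were called higher and 19.3% lower, and Ebp again did not pass (0.09 ± 0.10, edgeR adjusted p = 0.522). The libraries of these groups did not overlap for 8 of 9, against 71.2% of all genes, and 7 exceeded a 4-fold difference, against 0.588% of all genes. Hsd17b7 was 25.1-fold higher in Ch25hKO than in LXRdKO (4.65 ± 0.07, edgeR adjusted p = 3.94e-18), Sqle 18.7-fold (4.22 ± 0.08, edgeR adjusted p = 1.27e-17) and Cyp51 13.7-fold (3.78 ± 0.07, edgeR adjusted p = 2.53e-17). Nsdhl, at 3.77-fold (1.91 ± 0.07), had the smallest difference of the 8. The interval of the Ebp fold ran from 0.919 to 1.23. These calls were the same in all 14 alternatives, with the same limit for Hsd17b7 and Dhcr7 under the 5 CPM filter.

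Scaled by the length of the longest coding transcript, the enzymes stood at unlike levels, and the order changed with genotype. Which transcript the cells made was not measured, so places and ratios between genes depend on this choice of length. In Ch25hKO, Sc4mol (73.7 ± 1.38 CPM per kb) and Cyp51 (71.0 ± 0.691 CPM per kb) led and Dhcr7 (2.43 ± 0.112 CPM per kb) was lowest (SD, n = 2). In LXRdKO, Sc4mol led with 7.87 ± 0.316 CPM per kb and Dhcr7 was lowest with 0.246 ± 0.0184 CPM per kb. In WT, Sc4mol (5.51 ± 0.143 CPM per kb), Nsdhl (4.54 ± 0.0578 CPM per kb) and Ebp (4.52 ± 0.316 CPM per kb) led, with Nsdhl and Ebp closer than their spread. Ebp held place 8 of 9 in Ch25hKO, at 5.02 ± 0.477 CPM per kb, and place 3 in WT. Hsd17b7 held place 5 in Ch25hKO (25.4 ± 0.185 CPM per kb) and place 8 in WT (0.836 ± 0.0110 CPM per kb). The highest level was 30.3 times the lowest in Ch25hKO, 32.0 times in LXRdKO and 16.0 times in WT.

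**Figure D4:**
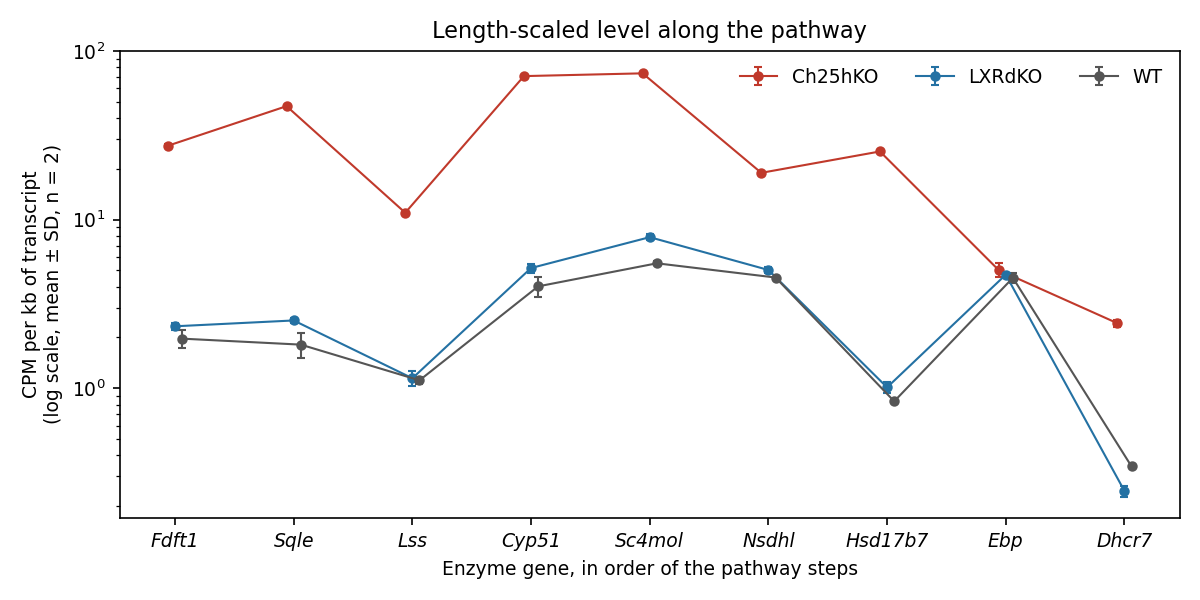
Mean CPM per kb of the longest coding transcript (log scale, error bars SD, n = 2) of the 9 enzymes in pathway order for Ch25hKO, LXRdKO and WT. The 3 lines meet at Ebp (5.02, 4.72 and 4.52 CPM per kb) and are furthest apart at Hsd17b7.

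Over the 6 libraries, log2 CPM of the 8 enzymes other than Ebp was closely correlated, although the size of their rise differed. The lowest Pearson's r was 0.967 over their 28 pairs and r lay between 0.550 and 0.637 for the 8 pairs with Ebp. These values describe 6 libraries of 3 genotypes, in which the Ch25hKO libraries stand far from the rest. By Euclidean distance of the centred log2 CPM profile to the median profile of the 9 enzymes, the 10 closest other genes included Hmgcs1 (distance 0.280), Fdps (0.461), Fasn (0.528), Idi1 (0.789), Stard4 (0.812), Acat2 (0.905), Mvk (1.06) and Pcyt2 (1.10). Of these 10, only Fasn and Pcyt2 were outside the pathway lists below. Fasn, the fatty acid synthase, was at 3.12 ± 0.08 in Ch25hKO over WT and at -0.09 ± 0.11 in LXRdKO over WT. Pcyt2, an enzyme of phosphatidylethanolamine synthesis, was at 2.58 ± 0.11 and -0.15 ± 0.14 in these comparisons. Among the enzymes, Fdft1 lay closest to the median profile (0.216) and Ebp furthest from it (3.94), with Nsdhl next (1.78).

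The other enzymes between squalene and cholesterol rose in Ch25hKO as well, by unequal amounts. All 4 listed genes rose, with a median log2 fold change of 1.68. For this and the pathway lists below, 19.8% of all genes were called higher and 19.5% lower in Ch25hKO. In LXRdKO these shares were 16.4% and 15.5%. Sc5d, the sterol desaturase that acts between Ebp and Dhcr7, rose 5.55-fold (2.47 ± 0.06, edgeR adjusted p = 2.25e-15), with 93.3 and 95.7 CPM in Ch25hKO, 19.7 and 21.1 CPM in LXRdKO, and 17.9 and 16.1 CPM in WT. The genes of the sterol reductase step after Cyp51 rose less: Tm7sf2 rose 1.85-fold (0.89 ± 0.18, edgeR adjusted p = 0.000673) and Lbr, which also binds lamin B, 1.74-fold (0.80 ± 0.10, edgeR adjusted p = 9.22e-06). In LXRdKO, 1 of these 4 rose and 0 fell. That gene was Sc5d (0.26 ± 0.07, edgeR adjusted p = 0.00811), whose call was lost without WT replicate 2 or LXRdKO replicate 2, with values of 0.17 and 0.21. Lbr was not called in LXRdKO (-0.19 ± 0.11), but it was called lower without WT replicate 2 (-0.35).

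Upstream of squalene, 8 of 9 genes rose in Ch25hKO and 0 fell, with a median log2 fold change of 2.64. Idi1, the isoprenoid isomerase, rose 21.2-fold (4.41 ± 0.10), Fdps, the farnesyl diphosphate synthase that supplies Fdft1, 16.6-fold (4.06 ± 0.07), and Hmgcs1 13.8-fold (3.78 ± 0.06). The gene that did not pass was Ggps1, which acts in a branch towards protein prenylation (-0.05 ± 0.06, edgeR adjusted p = 0.505). In LXRdKO, 3 of these 9 rose and 1 fell, with a median of -0.06. Idi1 rose by 0.59 ± 0.14 (edgeR adjusted p = 0.00330), Fdps by 0.31 ± 0.09 (edgeR adjusted p = 0.0103) and Hmgcs1 by 0.26 ± 0.07 (edgeR adjusted p = 0.00661), and Acat2, a thiolase, was lower (-0.37 ± 0.10, edgeR adjusted p = 0.00727). The call of Idi1 was made in all 14 alternatives. Those of the others were lost without a library: Fdps without LXRdKO replicate 1 or 2 (0.30 and 0.31), Hmgcs1 without WT replicate 2 or LXRdKO replicate 2 (0.18 and 0.23), and Acat2 without LXRdKO replicate 1 (-0.32). The call of Fdps was also lost with only the libraries compared (edgeR adjusted p = 0.0557).

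**Figure D5:**
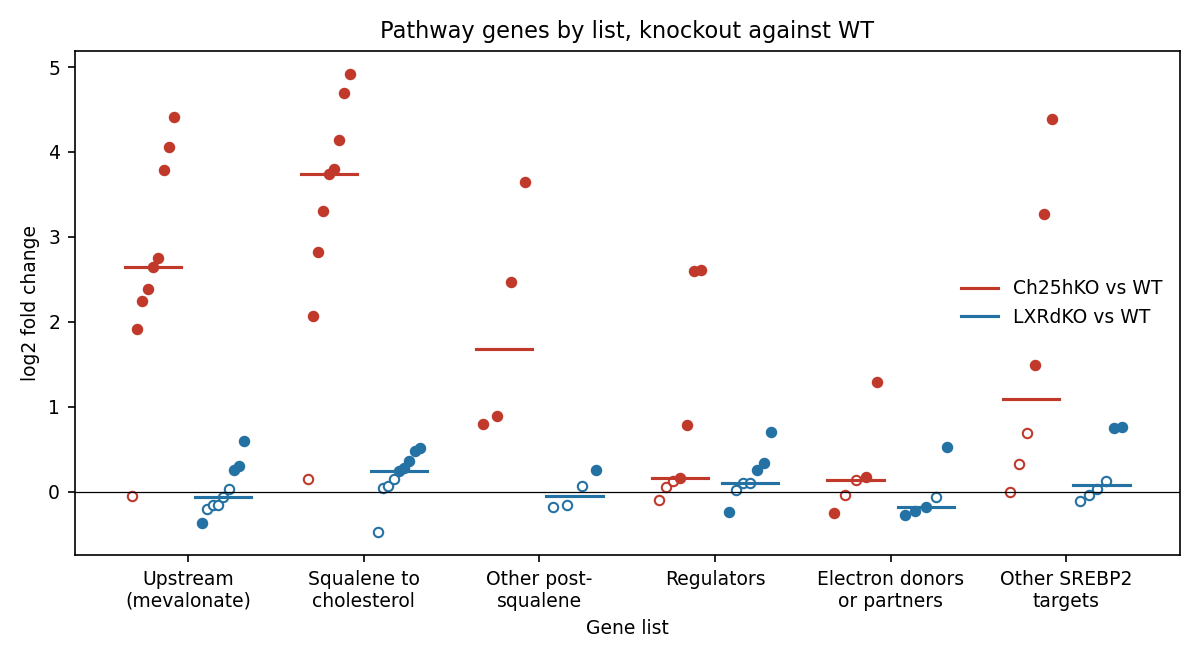
Log2 fold changes of single genes (points, filled where the adjusted p was under 0.05) and list medians (lines) for Ch25hKO over WT and LXRdKO over WT. Medians in Ch25hKO are 2.64 upstream of squalene and 3.74 for the 9 enzymes, and 0.16 for the regulators.

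The regulators of the pathway were divided. Of 7 listed, 4 rose in Ch25hKO, 0 fell and 3 did not pass. Srebf2, the gene of SREBP2, rose 6.12-fold (2.61 ± 0.06, edgeR adjusted p = 1.04e-15), and Insig1, which retains the SREBPs in the endoplasmic reticulum, rose 6.06-fold (2.60 ± 0.06, edgeR adjusted p = 4.19e-16). Srebf1 rose 1.72-fold (0.79 ± 0.08, edgeR adjusted p = 2.66e-07). Mbtps2, a protease that releases SREBPs, was barely called (0.16 ± 0.06, edgeR adjusted p = 0.0488), and its call was lost in 13 of 15 alternatives, among them each library left out in turn (0.12 to 0.19). Scap, the SREBP escort, did not pass (0.13 ± 0.08, edgeR adjusted p = 0.242). In LXRdKO, Srebf2 rose 1.62-fold (0.70 ± 0.07, edgeR adjusted p = 5.16e-07), Mbtps2 rose by 0.34 ± 0.06 (edgeR adjusted p = 0.000308), and Scap rose by 0.26 ± 0.08 (edgeR adjusted p = 0.0237). The Scap call did not hold with DESeq2 (DESeq2 adjusted p = 0.106), nor without WT replicate 1, LXRdKO replicate 1 or LXRdKO replicate 2 (0.22 to 0.30 without these). Insig2 fell by 0.25 ± 0.06 (edgeR adjusted p = 0.00328), a call lost without LXRdKO replicate 1 (-0.19), and Insig1 did not pass (0.10 ± 0.06). Srebf1 did not pass in LXRdKO either (0.11 ± 0.08, edgeR adjusted p = 0.330).

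Cyp51 and Sqle need electrons from the reductase Por, and the oxidases of the later steps are fed through cytochrome b5. Por fell in both knockouts, by 0.26 ± 0.05 in Ch25hKO (edgeR adjusted p = 0.00116) and by 0.19 ± 0.05 in LXRdKO (edgeR adjusted p = 0.0147), and the LXRdKO call was lost without WT replicate 1, LXRdKO replicate 1 or LXRdKO replicate 2 (-0.12, -0.19 and -0.18). Of the 5 genes listed as donors or partners, 2 rose and 1 fell in Ch25hKO. Cyb5b, an outer mitochondrial form of cytochrome b5, rose by 1.29 ± 0.05 (edgeR adjusted p = 5.19e-12), and Cyb5 by 0.17 ± 0.06 (edgeR adjusted p = 0.0222). The Cyb5 call did not hold with DESeq2 (DESeq2 adjusted p = 0.0745), nor without WT replicate 1 (0.11), Ch25hKO replicate 1 (0.13) or Ch25hKO replicate 2 (0.20). Cyb5r3, the reductase of cytochrome b5, had 0.14 ± 0.06 (edgeR adjusted p = 0.0570), and it passed without WT replicate 1 (0.20), without the filter and with a crossed replicate block. Pgrmc1, a partner of Cyp51, was at -0.04 ± 0.08. In LXRdKO, 1 of 5 rose (Cyb5b, 0.52 ± 0.06, edgeR adjusted p = 1.27e-06) and 3 fell (Por, Cyb5 at -0.27 ± 0.06 and Pgrmc1). The call of Pgrmc1 (-0.23 ± 0.08, edgeR adjusted p = 0.0406) was lost in 9 of 14 alternatives.

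Of 6 other SREBP2 targets, 3 rose in Ch25hKO and 0 fell, among them Stard4, a sterol carrier (4.39 ± 0.13), and Tmem97 (1.49 ± 0.18). In LXRdKO, 2 rose and 0 fell. Stard4 rose by 0.76 ± 0.18 (edgeR adjusted p = 0.00317), a call lost without LXRdKO replicate 2 (0.59). Over all 31 pathway genes outside the 9 enzymes, 21 rose and 1 fell in Ch25hKO, where 19.8% of all genes were higher and 19.5% lower. In LXRdKO, 10 rose and 5 fell, where 16.4% of all genes were higher and 15.5% lower, so the falls were near the share of all genes. The LXRdKO counts came to 5 and 3 without LXRdKO replicate 2. Cyb5, Cyb5b, Insig2, Mbtps2 and Tmem97 were named after their values were seen, to complete these counts. Falling genes in LXRdKO numbered 3 without WT replicate 1, 8 without WT replicate 2 and 1 without LXRdKO replicate 1.

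Markers of other cell types were read beside the rise of the enzymes. The summed level of 6 stromal markers (Col1a1, Col1a2, Pdgfrb, Pdgfra, Dcn and Col3a1) was 28.0 to 30.8 CPM in Ch25hKO, 14.4 to 16.1 CPM in LXRdKO and 12.2 to 12.6 CPM in WT, with 6 of 6 higher in Ch25hKO and 2 of 6 higher in LXRdKO. In sum, dendritic cell markers went the other way, at 12.6 to 13.5 CPM in Ch25hKO, 21.4 to 23.1 CPM in LXRdKO and 26.8 to 27.8 CPM in WT over 6 genes. Of the 5 tested, 3 fell in Ch25hKO and 1 fell in LXRdKO. The latter was Ccr7, at 4.33 CPM in LXRdKO and 9.83 CPM in WT on average. Xcr1 (13.8 CPM in LXRdKO and 13.6 CPM in WT) and Clec9a (3.62 and 3.17 CPM) were not lower in LXRdKO. Neutrophil markers were at 51.7 to 54.5 CPM in Ch25hKO, 18.8 to 19.5 CPM in LXRdKO and 38.6 to 39.5 CPM in WT over 5 genes, with 1 of 4 tested higher in Ch25hKO and 3 lower in LXRdKO. Most of that sum was S100a8, at 49.3 CPM in Ch25hKO, 16.5 CPM in LXRdKO and 35.5 CPM in WT on average, and it was the 1 gene called in Ch25hKO. S100a9 averaged 2.76 CPM in Ch25hKO, 1.84 CPM in LXRdKO and 2.67 CPM in WT, and Elane was at or near 0 in every library. The macrophage markers of the opening had 1 of 8 higher and 2 lower in Ch25hKO, and 6 of 8 higher in LXRdKO. B cell markers summed to at most 1.08 CPM, with 1 of 2 tested lower in LXRdKO, and T and NK cell markers to at most 2.99 CPM, with the 1 tested, Lck, lower in Ch25hKO. Beside these marker counts, 19.8% of all genes were called higher and 19.5% lower in Ch25hKO, and 16.4% and 15.5% in LXRdKO. The part of these cell types in the results was not tested.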

How the data were processed

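The authors deposited raw read counts per gene symbol, 1 column per library, with no normalization. The submitters' processing notes name CASAVA, STAR 2.3.0, HTSeq and the build mm10. The annotation, the counting mode and whether strand was used: not given in the sources used here. Per the labels' protocols, libraries came from 100 ng of RNA (Ovation and Encore kits).

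Genes were filtered with filterByExpr (12923 of 23337 kept, 99.98% of counts) and scaled by TMM. edgeR 4.0.16 (R 4.3.3) fitted 1 mean per genotype over all 6 libraries, using its robust quasi-likelihood test; p-values were adjusted over all tested genes (Benjamini-Hochberg) and called under 0.05. The code was tested on simulated data. Standard errors are the log2 fold change over the root of F. Log2 CPM for profiles used a prior count of 2. Lengths, coordinates and overlaps come from GENCODE vM21 (GRCm38, the build of mm10), promoters from RefSeq.

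Replicates differed by more than sampling noise (chi-square per degree of freedom 5.08 in Ch25hKO, 4.22 in LXRdKO, 12.2 in WT). Named were all enzymes, fixed pathway genes, the targeted genes and the 10 nearest profiles; some of these genes are not reported here but remain in the counts and medians. Members, lists and tests were chosen with earlier results of these data known. Alternatives were RLE and upper-quartile scaling, DESeq2 1.42.0, limma-voom (limma 3.58.1), no filter, a filter of 5 CPM in 2 libraries, only the libraries compared, a replicate block and each library left out; a crossed replicate block was added after seeing the data.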

Additional observations from a re-analysis of the deposited data

How the results depend on the processing

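In both comparisons of Ch25hKO, the 8 higher enzymes and the call of each enzyme were the same under all alternatives, including the replicate block (8 and 8 higher), as were the counts of 0 lower; the exception in direction was Ebp, never called, whose log2 fold change over LXRdKO ran from -0.0091 (without Ch25hKO replicate 1) to 0.18 with a library left out. In LXRdKO over WT, 3 enzymes in place of 5 were higher under RLE scaling, upper-quartile scaling, DESeq2, limma-voom, the 5 CPM filter, only the libraries compared and the replicate block, and 2 to 4 with a library left out. Uncalled values that changed sign in LXRdKO over WT with a library left out were Lss (-0.063 to 0.14), Ebp (-0.021 to 0.14), Mvk (-0.36 to 0.072), Tm7sf2 (-0.34 to 0.0012) and Tmem97 (-0.36 to 0.22). The 31 other pathway genes gave 5 to 10 higher and 1 to 8 lower in LXRdKO over WT with a library left out, and in Ch25hKO over LXRdKO 0 to 1 lower (0 with DESeq2). With a library left out, all genes called higher in Ch25hKO over WT ran from 1501 (without Ch25hKO replicate 1) to 2478, and in Ch25hKO over LXRdKO from 1504 (without LXRdKO replicate 2; 1585 without Ch25hKO replicate 1) to 2828. In LXRdKO over WT they ran, again with a library left out, from 1292 to 2097 higher and 1198 to 2232 lower, lowest without LXRdKO replicate 1 (1314 and 1265 without LXRdKO replicate 2). The causes were not tested. Differences between replicates correlated at -0.11 (Ch25hKO with WT), -0.01 (LXRdKO with WT) and 0.02 (Ch25hKO with LXRdKO). These values cannot show whether libraries with the same replicate number were handled together. The replicate block gave 2372 higher and 2393 lower genes in Ch25hKO over WT, and a block with crossed Ch25hKO numbers, added after seeing the data, gave 2682 and 2638. Depth limits Dhcr7 most, at 29 to 43 counts outside Ch25hKO. Dhcr7 and Hsd17b7 passed the 5 CPM filter only through their Ch25hKO libraries, so that setting is no separate support for their calls.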
